A study of Mus musculus with 3 samples.

Results

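Fibroblasts of the meninges and of the space around larger brain vessels lay down the collagens and proteoglycans of these layers, and are known for retinoic acid synthesis, insulin-like growth factor supply and prostaglandin D synthesis at the surface of the brain. Their transcripts were followed here through 10 genes known as markers of these cells, Dcn, Lum, Ogn, Fmod, Pdgfra, Igf2, Igfbp2, Ptgds, Aldh1a2 and Slc6a13. All 10 were found by symbol among the 29917 genes in the expression files, and a gene with several transcript rows was represented by the row with the largest total count. Purified brain vessels from 3-month-old male mice were sequenced as polyadenylated RNA in 3 libraries, each a pool of the vessels of 3 mice. The C57BL6 WT and C57BL6-BALB/c WT libraries came from wild-type mice of these backgrounds. The third library came from Cx30-/- mice, which lack Connexin 30, a gap junction protein of astrocytes encoded by Gjb6, in every tissue. Its background is C57BL6 in the sample labels and C57BL6/Balbc in the methods of the study. With 1 library per group there are no replicates, so that a difference in the mice, their background or the preparation cannot be told apart from an effect of the deletion. In a bulk vessel preparation, fewer cells of a type and less RNA per cell cannot be told apart either.

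The 10 genes encode proteins of 3 kinds. Dcn (Decorin), Lum (Lumican), Ogn (Osteoglycin) and Fmod (Fibromodulin) encode small leucine-rich proteoglycans, secreted proteins that bind collagen fibrils. Pdgfra (a receptor for platelet-derived growth factors), Igf2 (a growth factor) and Igfbp2 (a protein that binds such growth factors) belong to signaling. Ptgds (prostaglandin D2 synthase, which is also a secreted carrier of small lipids), Aldh1a2 (the retinaldehyde dehydrogenase that makes retinoic acid) and Slc6a13 (the GABA and taurine transporter GAT2) are enzymes and a transporter. Several are not restricted to fibroblasts, since Pdgfra also marks oligodendrocyte precursors, Ptgds is also made by oligodendrocytes and choroid plexus, and Igf2 and Igfbp2 are also made by choroid plexus.

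The set of RefSeq start sites used here covered 8 of the 10 genes, with 14 start sites in all, and held none for Dcn and Lum. The 250 bases before each start were read on GRCm38.p6. The sequences of 5 genes are shown, with 1 window for each, the most upstream for Igfbp2 and Slc6a13. Of the 10 genes, Aldh1a2, Ogn and Fmod had the 3 highest ratios of Cx30-/- to C57BL6 WT. Slc6a13 had the highest ratio of Cx30-/- to C57BL6-BALB/c WT, and Igfbp2 differed most between the WT libraries. Capitals mark TATAAA or GGGCGG or AGGTCA on either strand, and each sequence runs 5′ to 3′ on the strand of its gene up to the base before the start.
Aldh1a2, chr9:71215539-71215788, plus strand: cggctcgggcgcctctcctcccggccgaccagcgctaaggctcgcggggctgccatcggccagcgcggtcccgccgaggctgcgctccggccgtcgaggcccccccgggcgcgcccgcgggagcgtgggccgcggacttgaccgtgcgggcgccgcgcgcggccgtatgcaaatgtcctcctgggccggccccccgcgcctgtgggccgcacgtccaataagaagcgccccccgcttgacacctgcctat
Ogn, chr13:49607765-49608014, plus strand: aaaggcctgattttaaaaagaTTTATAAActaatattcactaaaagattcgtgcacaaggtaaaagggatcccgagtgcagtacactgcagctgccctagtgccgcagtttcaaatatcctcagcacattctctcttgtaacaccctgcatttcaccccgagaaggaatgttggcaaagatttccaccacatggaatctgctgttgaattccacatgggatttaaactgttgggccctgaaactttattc
Fmod, chr1:134037004-134037253, plus strand: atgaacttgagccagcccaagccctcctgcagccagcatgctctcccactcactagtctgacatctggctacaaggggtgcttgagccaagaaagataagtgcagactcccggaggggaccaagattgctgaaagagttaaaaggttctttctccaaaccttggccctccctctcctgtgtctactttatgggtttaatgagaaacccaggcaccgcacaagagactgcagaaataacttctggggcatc
Slc6a13, chr6:121300038-121300287, plus strand: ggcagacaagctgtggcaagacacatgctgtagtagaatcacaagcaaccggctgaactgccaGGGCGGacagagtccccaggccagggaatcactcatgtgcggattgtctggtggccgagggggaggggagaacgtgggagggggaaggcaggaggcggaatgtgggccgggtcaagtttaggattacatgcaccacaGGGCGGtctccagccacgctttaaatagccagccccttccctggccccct
Igfbp2, chr1:72824230-72824479, plus strand: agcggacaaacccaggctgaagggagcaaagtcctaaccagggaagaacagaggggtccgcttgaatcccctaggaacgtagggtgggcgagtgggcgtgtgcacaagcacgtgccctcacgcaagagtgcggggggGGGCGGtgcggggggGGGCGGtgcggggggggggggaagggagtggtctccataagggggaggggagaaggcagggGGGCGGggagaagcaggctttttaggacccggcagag
The sequences had little composition in common. The GC content of the windows shown was 77.6% for Aldh1a2, 67.2% for Igfbp2, 60.8% for Slc6a13, 51.2% for Fmod and 42.0% for Ogn. The median over all 32817 start sites was 52.4%. The windows not shown had a GC content of 56.4% for Igfbp2, and of 51.6% and 49.6% for Slc6a13. TATAAA, the core of a TATA box, was held by 1 of the 14 windows, that of Ogn, and by 12.4% of all windows. In Ogn it was read on both strands of overlapping bases, far upstream of the start. GGGCGG, the GC box, was held by windows of Igfbp2, Slc6a13 and Igf2, and by 32.7% of all windows. AGGTCA, a motif of nuclear receptors, was held by further windows of Igf2 and Slc6a13, and by 14.0% of all. GTAAACA, a forkhead motif found in 3.16% of all windows, was in none of the 14, and no window held a direct repeat of AGGTCA spaced by 5 bases, found in 0.00914% of all, in which AGGTCA itself lies. Both strands were read.

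Values are given as normalized counts, the deposited counts after scaling by size factors (median of ratios). The deposited counts over all transcripts summed to 50375426 to 60725557 per library. Gjb6 itself had 2531.4 normalized counts in the C57BL6 WT library, 2425.9 in C57BL6-BALB/c WT and 100.7 in Cx30-/- vessels. Endothelial markers were abundant in all libraries, the 10 listed genes summing to 149973.3 normalized counts in the C57BL6 WT library, 94774.8 in C57BL6-BALB/c WT and 182459.5 in Cx30-/-. Transcripts of other brain cells were present as well, none of the 6 astrocyte and 8 neuron markers being at 0 in any library. Each of the 10 fibroblast genes had at least 346 counts in every library, which does not show how much of each came from fibroblasts.

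**Figure D1:**
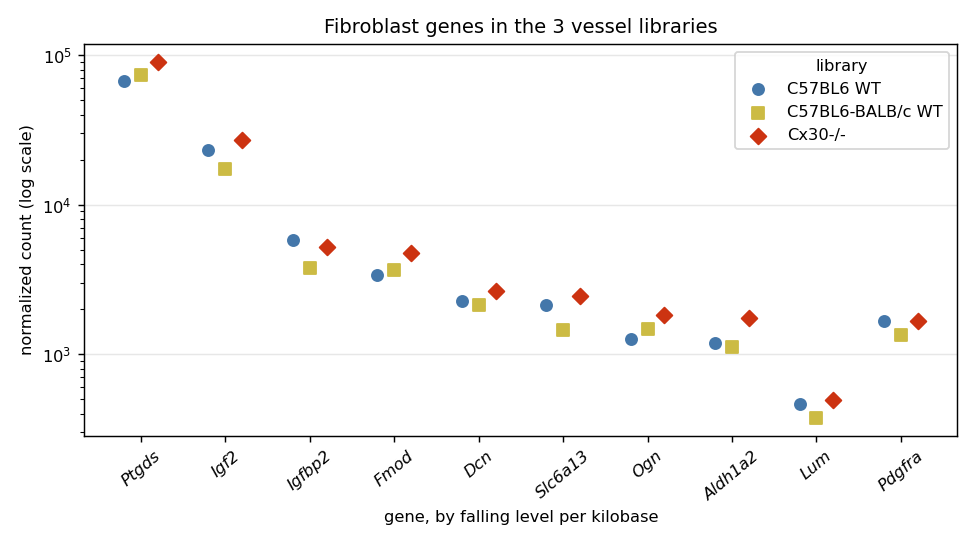
Normalized counts (log scale) of the 10 fibroblast genes in the 3 libraries, 1 point per library, ordered by mean level per kilobase. Ptgds was the highest and Lum had the fewest counts, and 8 of the 10 genes were highest in the Cx30-/- library.

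Per kilobase of transcript, which allows genes to be compared, Ptgds was the highest, with a mean of 85536.8 normalized counts per kilobase over the 3 libraries. This placed it at rank 4 of all genes. Igf2, with 4759.8, and Igfbp2, with 3766.3, followed at ranks 93 and 142. Fmod (1376.1), Dcn (1336.9) and Slc6a13 (897.4) stood next, above Ogn (607.4) and Aldh1a2 (594.6). Lum (251.0) and Pdgfra (240.2) were the lowest of the 10 per kilobase, at ranks 7532 and 7746. The neighbours Fmod and Dcn, and likewise Ogn and Aldh1a2, changed places between libraries, while the order of the other 6 genes was the same in each. Reads reached most of each transcript in each library, for example 1755, 1751 and 1753 of the 1756 bases of Dcn. Coverage was less complete for Igfbp2, with 1233, 1225 and 1261 of 1307 bases, and Slc6a13, with 2109, 2098 and 2129 of 2234. The length of each row was taken from the files, and is shorter than in GENCODE M21 for Lum (1773 against 2448 bases), Fmod (2844 against 3120) and Ogn (2492 against 2566). With the GENCODE M21 lengths the mean level per kilobase was 1254.4 for Fmod, below Dcn (1335.4), 589.9 for Ogn, below Aldh1a2 (594.6), and 181.8 for Lum, below Pdgfra (238.3), so the order within these 3 pairs depends on the gene model.

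In both comparisons with Cx30-/- vessels, none (0) of the 10 genes differed at least 2-fold. The study asked which transcripts changed without Cx30 whatever the WT background, and left out genes under 50 reads or under 2-fold. Against C57BL6 WT, where 2.68% of the 14776 genes with at least 50 normalized counts in 1 of the 2 libraries passed 2-fold, the members ranged from a ratio of 0.90 for Igfbp2 to 1.45 for Aldh1a2. Against C57BL6-BALB/c WT, where 8.69% of 14891 genes passed, they ranged from 1.23 for Pdgfra to 1.69 for Slc6a13. In both comparisons alike, 1.42% of 14688 genes were past 2-fold with 1 sign, 0.742% being higher. By direction, 1.42% of genes were past 2-fold higher and 1.26% lower against C57BL6 WT, and 3.96% higher and 4.73% lower against C57BL6-BALB/c WT. Between the WT libraries the 10 genes also held none (0) past 2-fold, while 3.43% of 14791 genes were, 1.41% higher and 2.02% lower in C57BL6-BALB/c WT. The 95% exact counting intervals of all 10 genes lay within 2-fold in every comparison. Such intervals hold for counting error and say nothing of how mice vary.

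Below 2-fold, the differences mostly had 1 sign. Cx30-/- vessels had more normalized counts than both WT libraries for 8 of the 10 genes, while 37.1% of all genes were higher than in both and 36.6% lower than in both. The other 2, Pdgfra and Igfbp2, lay between the WT libraries, as did 26.3% of all genes. Taken singly, 8 of the 10 were higher than in C57BL6 WT (49.3% of all genes), 10 of 10 higher than in C57BL6-BALB/c WT (50.3%), and 3 of 10 higher in C57BL6-BALB/c WT than in C57BL6 WT (7399 of 14791 genes). The median log2 ratio of the 10 genes was 0.22 against C57BL6 WT and 0.39 against C57BL6-BALB/c WT, beside -0.0046 and 0.0040 over all genes. These comparisons share the Cx30-/- library and are not independent. The C57BL6-BALB/c WT library was the lowest of the 3 for 7 of the 10 genes, and also the lowest for 41.2% of 14979 genes. The 10 genes together held 0.52% of all normalized counts in C57BL6 WT, 0.48% in C57BL6-BALB/c WT and 0.65% in Cx30-/- vessels, most of it from Ptgds.

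As a test across genes, the WT libraries were pooled into 1 group and set against Cx30-/- with the quasi-likelihood test of edgeR, whose error rests on the difference between the WT libraries. None (0) of the 10 genes had an adjusted p under 0.05, beside 9 of 17576 genes (0.0512%), of which 7 were higher (0.0398%) and 2 lower (0.0114%) in Cx30-/- vessels. At an unadjusted p under 0.05 there was 1 of the 10, Aldh1a2, beside 8.69% of all genes. The lowest adjusted p (Benjamini-Hochberg, edgeR's quasi-likelihood test) was 0.538, for Aldh1a2, and the highest 0.976, for Igfbp2. With 1 library against 2, the test finds few changes of 2-fold or less, so that a p that misses the threshold does not show that a gene of this list did not differ. DESeq2 called none (0) of the 10 as well, and 7 of 14193 genes in all (0.0493%).

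**Figure D2:**
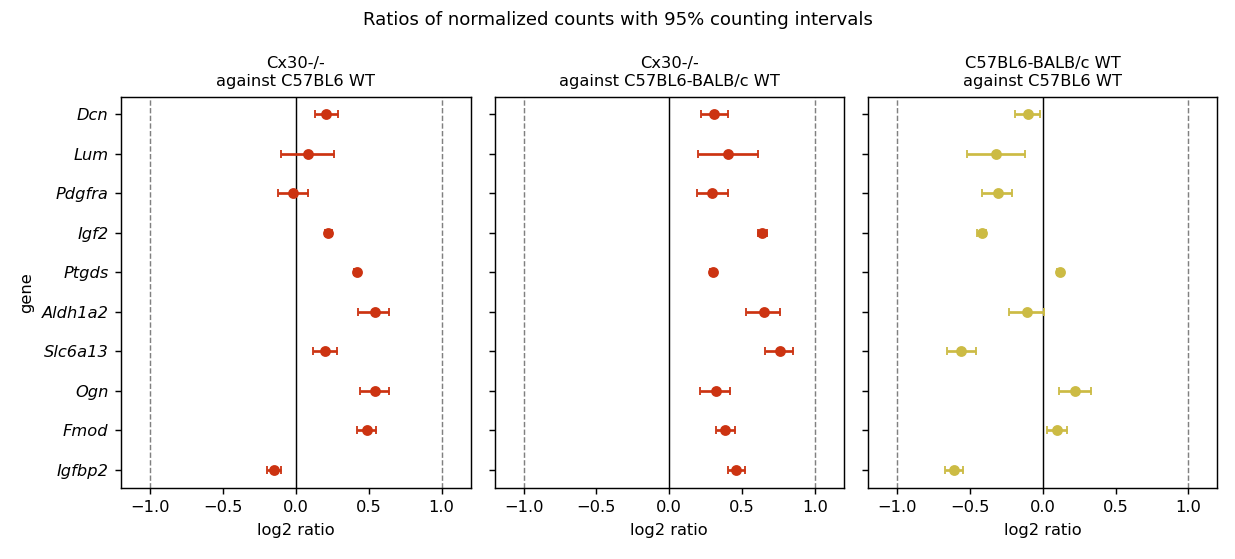
Log2 ratios of normalized counts of the 10 genes in the 3 comparisons, with 95% exact counting intervals as bars and 2-fold as dashed lines. All 10 points lie above 0 against C57BL6-BALB/c WT, 8 against C57BL6 WT, and 3 when the WT libraries are compared with each other, and no interval reaches 2-fold.

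Of the proteoglycan genes, Dcn (ENSMUSG00000019929; chromosome 10 of GRCm38, 97479609 to 97518143, plus strand) had 2280.8 normalized counts in the C57BL6 WT library, 2125.7 in C57BL6-BALB/c WT and 2636.3 in Cx30-/- vessels. The log2 ratio of Cx30-/- to C57BL6 WT was 0.21, with a 95% exact counting interval of 0.13 to 0.29, and that of Cx30-/- to C57BL6-BALB/c WT was 0.31 (0.22 to 0.40). For the other genes the pair of log2 ratios is given in this order. Decorin binds collagen fibrils and sequesters TGF-beta. Lum (ENSMUSG00000036446; 97565128 to 97572703 on the same chromosome and strand) had 467.2 normalized counts in the C57BL6 WT library, 373.7 in C57BL6-BALB/c WT and 494.1 in Cx30-/-. Its log2 ratio of 0.08 against C57BL6 WT had an interval of -0.10 to 0.26, which includes 0, and the ratio against C57BL6-BALB/c WT was 0.40 (0.20 to 0.61). Dcn and Lum were thus highest in Cx30-/- and lowest in C57BL6-BALB/c WT vessels, with Lum in Cx30-/- within counting error of C57BL6 WT. The level of Dcn per kilobase was 4.93 times that of Lum in C57BL6 WT, 5.74 times in C57BL6-BALB/c WT and 5.39 times in Cx30-/-.

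Ogn (ENSMUSG00000021390; chromosome 13, 49608046 to 49624501, plus strand) had 1254.8 normalized counts in the C57BL6 WT library, 1463.6 in C57BL6-BALB/c WT and 1822.2 in Cx30-/- vessels, with log2 ratios of 0.54 (0.44 to 0.64) and 0.32 (0.21 to 0.42). Fmod (ENSMUSG00000041559; chromosome 1, 134037254 to 134048277, plus strand), whose product regulates the assembly of collagen fibrils, had 3380.2, 3627.0 and 4733.3. Its log2 ratios were 0.49 (0.42 to 0.55) and 0.38 (0.32 to 0.45). In contrast to Dcn and Lum, these genes were lowest in C57BL6 WT, the log2 ratio of C57BL6-BALB/c WT to C57BL6 WT being 0.22 (0.11 to 0.33) for Ogn and 0.10 (0.03 to 0.17) for Fmod. The adjusted p of edgeR's quasi-likelihood test was 0.753 for Ogn and 0.809 for Fmod.

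The 4 proteoglycan genes lie in 3 chromosomal clusters with relatives of the same family. On chromosome 10, Dcn and Lum are followed by Kera and Epyc. Kera, encoding Keratocan of the cornea, had 0 counts in each library, which allows up to 3 counts or 2.62 to 3.24 normalized counts in each, and Epyc, encoding Epiphycan of cartilage, had 38, 60 and 22 counts in C57BL6 WT, C57BL6-BALB/c WT and Cx30-/-. The order of level was therefore steep within 1 cluster, from 1501.3 normalized counts per kilobase of Dcn through 278.7 of Lum to 9.1 of Epyc in the Cx30-/- library. Epyc was past 2-fold against C57BL6-BALB/c WT, with a log2 ratio of -1.49. On chromosome 13, Ecm2, Aspn, Omd and Ogn stand side by side and all were detected. Omd, encoding Osteomodulin, had 122.2, 190.1 and 258.1 normalized counts, and was past 2-fold against C57BL6 WT with a log2 ratio of 1.08, while against C57BL6-BALB/c WT it was 0.44. Aspn, encoding Asporin, had 608.6, 868.4 and 1053.2, and thus the same order of libraries as Omd and Ogn. Ecm2 did not share it, with 1751.7, 1123.3 and 1932.4. On chromosome 1, Prelp had 5133.6, 5140.3 and 6407.6 normalized counts and log2 ratios of 0.32 in both comparisons, and Optc, encoding Opticin of the eye, had only 30 to 34 counts per library.

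**Figure D3:**
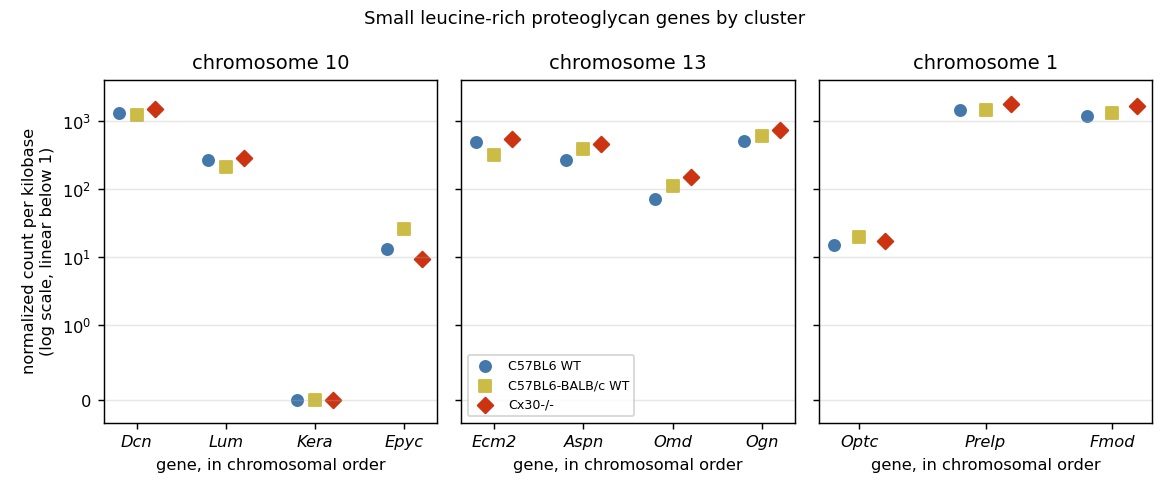
Normalized counts per kilobase (log scale, linear below 1) of small leucine-rich proteoglycan genes in the order they stand in on 3 chromosomes, 1 point per library. Levels fall from Dcn to Epyc on chromosome 10, with Kera at 0, while all 4 genes on chromosome 13 were detected in each library.

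Of 13 other small leucine-rich proteoglycan genes, 7 had at least 50 normalized counts in both comparisons. None (0) of these differed at least 2-fold in both, and 6 of the 7 were higher in Cx30-/- vessels than in both WT libraries. The exception was Podn, which was named after its values were seen. It had 399.1 normalized counts in the C57BL6 WT library, 894.3 in C57BL6-BALB/c WT and 518.2 in Cx30-/- vessels. The median log2 ratio of the list was 0.32 in each comparison. It was taken over 7 genes with at least 50 normalized counts against C57BL6 WT and over 9 against C57BL6-BALB/c WT.

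Of the signaling genes, Pdgfra (ENSMUSG00000029231; chromosome 5, 75152292 to 75198215, plus strand) had 1677.4 normalized counts in the C57BL6 WT library, 1350.1 in C57BL6-BALB/c WT and 1654.4 in Cx30-/- vessels. Its log2 ratio against C57BL6 WT was -0.02 (-0.12 to 0.08), the smallest in size among the 10 genes, and 0.29 (0.19 to 0.40) against C57BL6-BALB/c WT. Other markers of the precursor cells that also carry this receptor summed to 5493.4, 5355.2 and 4171.1 normalized counts over 7 genes, none at 0, and 5 of the 7 were lower in Cx30-/- than in both WT libraries. The exceptions were Cspg4, with log2 ratios of 0.13 and -0.04, and C1ql1, with -0.33 and 0.02. Cspg4 alone held 2221.5, 2504.8 and 2431.7 of the summed normalized counts, so that the sums follow the 5 lower genes only in part. Olig2, a transcription factor of that lineage, passed 2-fold in both comparisons, with log2 ratios of -1.40 and -1.14. The part of these cells in the level of Pdgfra was not tested. Among the partners of the receptor, the ligand genes Pdgfa and Pdgfc had log2 ratios of 0.21 and -0.03 against C57BL6 WT, and 0.00 and -0.24 against C57BL6-BALB/c WT. Pdgfrb, the related receptor of pericytes and smooth muscle, had 7063.4, 4352.9 and 7391.6 normalized counts, so that Pdgfra stood at 0.198, 0.258 and 0.186 times its level per kilobase in C57BL6 WT, C57BL6-BALB/c WT and Cx30-/-. Pdgfb, the ligand gene of this pathway with the highest level per kilobase, had log2 ratios of 0.31 and 0.77. None (0) of the 5 genes of the pathway passed 2-fold in either comparison.

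Igf2 (ENSMUSG00000048583; chromosome 7, 142650766 to 142666816, minus strand) had 23122.7 normalized counts in the C57BL6 WT library, 17302.4 in C57BL6-BALB/c WT and 27002.6 in Cx30-/- vessels. Its log2 ratios were 0.22 (0.20 to 0.25) and 0.64 (0.61 to 0.67), and that between the WT libraries was -0.42 (-0.45 to -0.39). The counts were thus highest in Cx30-/- and lowest in C57BL6-BALB/c WT vessels, by more than the sampling of reads. GENCODE M21 places another protein-coding gene, Gm49394, over 3596 exon bases of the Igf2 row on the same strand, whose reads cannot be told apart from those of Igf2. The 7 transcript rows of Igf2 share reads. The 4 rows with the most counts had log2 ratios of 0.22 to 0.26 in the comparison with C57BL6 WT and of 0.64 to 0.71 against C57BL6-BALB/c WT, and the other 3, holding 2.0% to 8.1% as many counts as the top row, 0.34 to 0.41 and 0.35 to 0.51.

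Igfbp2 (ENSMUSG00000039323; chromosome 1, 72824503 to 72852474, plus strand) had 5779.8 normalized counts in the C57BL6 WT library, 3781.5 in C57BL6-BALB/c WT and 5206.4 in Cx30-/- vessels. It was the only one of the 10 genes whose interval lay below 0 against C57BL6 WT, with a log2 ratio of -0.15 (-0.20 to -0.10), while against C57BL6-BALB/c WT it was 0.46 (0.40 to 0.52). The difference between the WT libraries, -0.61 (-0.67 to -0.55), was the largest among the 10 genes. Pdgfra had the same library order as Igfbp2, though in Cx30-/- vessels it was within counting error of C57BL6 WT. The order was also that of the 13 choroid plexus markers. These markers summed to 190788.1 normalized counts in the C57BL6 WT library, 78829.1 in C57BL6-BALB/c WT and 108025.1 in Cx30-/- vessels, none being at 0. All 13 were lower in Cx30-/- than in C57BL6 WT and higher than in C57BL6-BALB/c WT. The part of choroid plexus RNA in Igfbp2 and Igf2 was not tested. Igf2 did not follow that order, and the level of Igf2 per kilobase was 1.11 times that of Igfbp2 in C57BL6 WT, 1.27 times in C57BL6-BALB/c WT and 1.44 times in Cx30-/-.

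Of the receptor genes, Igf1r, the signaling receptor, had log2 ratios of 0.29 and 0.49, and Igf2r, the receptor that clears Igf2, had 0.09 and -0.06. H19, the imprinted neighbour of Igf2, was near the limit of detection, with 24, 10 and 35 counts in C57BL6 WT, C57BL6-BALB/c WT and Cx30-/-. Igfbp7, the gene of the pathway list with the highest level per kilobase, had 7546.3, 4874.6 and 9374.3 normalized counts. Of the 14 listed genes of the pathway with at least 50 normalized counts in both comparisons, 9 were higher and 2 lower in Cx30-/- than in both WT libraries, and none (0) passed 2-fold in both. Pappa, encoding a protease of such binding proteins and named after its values were seen, was the 1 gene past 2-fold in a single comparison, with 36, 56 and 26 counts and a log2 ratio of -1.15 against C57BL6-BALB/c WT.

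Ptgds (ENSMUSG00000015090; chromosome 2, 25466709 to 25470046, minus strand) had 67567.4 normalized counts in the C57BL6 WT library, 73356.0 in C57BL6-BALB/c WT and 90282.4 in Cx30-/- vessels. Its log2 ratios were 0.42 (0.40 to 0.43) and 0.30 (0.28 to 0.31). With so many reads the intervals were the narrowest of the 10 genes, but the adjusted p of edgeR's quasi-likelihood test was 0.946. The 5 transcript rows gave log2 ratios of 0.41 to 0.43 against C57BL6 WT and of 0.30 to 0.38 against C57BL6-BALB/c WT. The 6 myelin markers, which come from cells that also make Ptgds, summed to 51136.2 in C57BL6 WT, 45368.1 in C57BL6-BALB/c WT and 40706.2 in Cx30-/- vessels, an order opposite to that of Ptgds. Hpgds, the synthase of the same prostaglandin in blood and immune cells, had 85.6, 87.5 and 111.2 normalized counts, and per kilobase Ptgds stood at about 1080, 1140 and 1110 times its level in C57BL6 WT, C57BL6-BALB/c WT and Cx30-/-. Ptgs1, encoding cyclooxygenase-1, had log2 ratios of -0.42 and -0.24. Of 13 genes of the prostaglandin list that passed the count minimum in both comparisons, 6 were higher and 3 lower in Cx30-/- than in both WT libraries, and none (0) passed 2-fold in both. Abcc4, an exporter of prostaglandins with the highest level per kilobase of the list, had log2 ratios of 0.36 and 0.95. Pla2g4a and Ptgs2, named after their values were seen, passed 2-fold against C57BL6-BALB/c WT, with 1.43 and -1.12, and also between the WT libraries, with log2 ratios of C57BL6-BALB/c WT to C57BL6 WT of -1.59 and 1.39.

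Aldh1a2 (ENSMUSG00000013584; chromosome 9, 71215789 to 71296243, plus strand) had 1195.4 normalized counts in the C57BL6 WT library, 1108.2 in C57BL6-BALB/c WT and 1735.1 in Cx30-/- vessels. The WT libraries were close, with a log2 ratio of -0.11 (-0.23 to 0.01), and the Cx30-/- library stood above both, with 0.54 (0.43 to 0.64) and 0.65 (0.53 to 0.76). As ratios these were 1.45 (1.35 to 1.56) and 1.57 (1.45 to 1.69). Aldh1a1, another enzyme that makes retinoic acid, had 1012.1, 758.2 and 1351.2 normalized counts and log2 ratios of 0.42 and 0.83. Cyp26b1, which degrades retinoic acid, had -0.65 and 0.50, and Rarb, a receptor gene that retinoic acid induces, had -0.31 and -0.20. Of the 15 genes of the pathway past the count minimum in both comparisons, 7 were higher and 3 lower in Cx30-/- than in both WT libraries, and none (0) passed 2-fold in either comparison. Aldh1a2 and Aldh1a1 were thus highest in the Cx30-/- library, while the listed receptor genes went both ways. Rarb, Rxrb and Rxrg were lowest in Cx30-/-, Rxrb within counting error of C57BL6 WT, with a log2 ratio of -0.04 (-0.14 to 0.06). Rara, Rarg and Rxra were highest there, with log2 ratios of 0.34 and 0.40, 0.28 and 0.63, and 0.12 and 0.28. The receptor genes other than Rarb were named after their values were seen.

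Slc6a13 (ENSMUSG00000030108; chromosome 6, 121300227 to 121337733, plus strand) had 2128.0 normalized counts in the C57BL6 WT library, 1445.2 in C57BL6-BALB/c WT and 2441.1 in Cx30-/- vessels. Its log2 ratio of 0.76 (0.66 to 0.85) against C57BL6-BALB/c WT was the largest of the 10 genes in either comparison, beside 0.20 (0.12 to 0.28) against C57BL6 WT. The WT libraries themselves differed by a log2 ratio of -0.56 (-0.66 to -0.46), C57BL6-BALB/c WT to C57BL6 WT. Its relative Slc6a12, the betaine transporter, had log2 ratios of 0.40 and 0.96, and Slc6a13 stood 6.05, 6.09 and 5.27 times above it per kilobase in C57BL6 WT, C57BL6-BALB/c WT and Cx30-/-. Slc6a6, the taurine transporter and the highest of the listed Slc6 genes per kilobase, had 0.17 and 0.34. Across the 9 Slc6 genes past the count minimum, 3 were higher and 5 lower in Cx30-/- than in both WT libraries, and none (0) passed 2-fold in both. Slc6a17, a transporter of synaptic vesicles named after its values were seen, passed 2-fold against C57BL6-BALB/c WT, with a log2 ratio of -1.12.

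Of the other listed genes of the same tissue layers, more were higher than lower in Cx30-/- against both WT libraries. Over all genes, 37.1% were higher than in both and 36.6% lower. Of 18 other fibroblast genes past the count minimum in both comparisons, 11 were higher and 2 lower in Cx30-/- than in both WT libraries, with median log2 ratios of 0.16 and 0.30. Its 8 collagen genes, named after their values were seen, were split. Col1a1, Col1a2, Col3a1 and Col15a1 were higher than in both WT libraries, from 0.03 to 0.37 against C57BL6 WT and from 0.21 to 0.62 against C57BL6-BALB/c WT. Col6a3 was lower than in both, with -0.08 and -0.45. Against C57BL6 WT, Col15a1 (-0.08 to 0.14) and Col6a3 (-0.28 to 0.12) were within counting error. Col5a1 (0.01 and -0.49), Col5a2 (0.08 and -0.01) and Col12a1 (-0.06 and 0.12) lay between the WT libraries. Pi16, a marker of adventitial fibroblasts, was the 1 gene of the list past 2-fold, with 552.7, 1030.4 and 1714.2 normalized counts in C57BL6 WT, C57BL6-BALB/c WT and Cx30-/- and log2 ratios of 1.63 and 0.73. Of 16 genes of the meninges and arachnoid barrier, 14 were higher in Cx30-/- than in both WT libraries and 1, Cldn11, was lower, and the medians were 0.46 and 0.61. Cldn11 is also a myelin gene. Which cells gave the counts of the other genes of this list was not tested. Slc22a2 was past 2-fold against C57BL6 WT, with 83.8 normalized counts there and 193.0 in Cx30-/- vessels, but had 200.9 in C57BL6-BALB/c WT, so that the WT libraries differed past 2-fold as well, and Slc47a1 and Slc22a8 were past it against C57BL6-BALB/c WT, with 1.17 and 1.04. These 3 transporter genes, Pi16 and Cldn11 were named after their values were seen, and in edgeR's quasi-likelihood test the lowest adjusted p was 0.231 over the fibroblast list and 0.35 over the meningeal list.

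**Figure D4:**
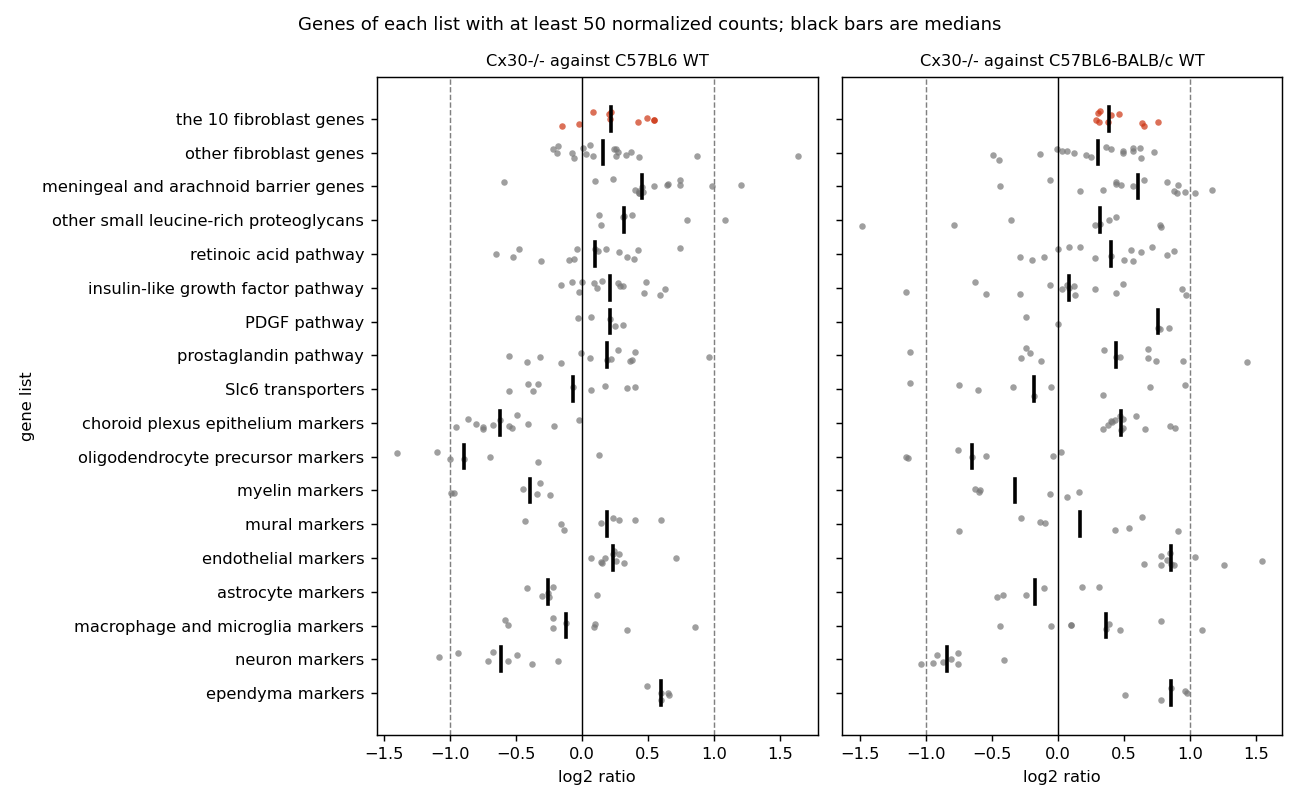
Log2 ratios of Cx30-/- to each WT library for the genes of each list with at least 50 normalized counts, 1 point per gene, with black bars at the list medians and dashed lines at 2-fold. The 10 fibroblast genes have medians of 0.22 and 0.39, the meningeal list 0.46 and 0.61, and the neuron markers -0.62 and -0.84.

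Markers of other cells differed between the same libraries. For the endothelial list the median log2 ratio was 0.24 to C57BL6 WT and 0.86 to C57BL6-BALB/c WT, with all 10 genes higher in Cx30-/- than in both. The ependymal list, with all 5 genes higher than in both, had 0.60 and 0.86. The mural list had 0.18 and 0.16, and 1 of its 8 genes was higher than in both. The macrophage and microglia list had -0.12 and 0.36. The neuron markers were lower in Cx30-/- vessels for all 8 genes, among them Slc32a1, a vesicular transporter of inhibitory neurons, with -1.08 and -1.04. Astrocyte markers had medians of -0.26 and -0.18. The part of such shifts in cell content in the values of the 10 fibroblast genes was not tested.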

How the data were processed

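Vessels were isolated by the study's authors from whole brains, and polyadenylated RNA of 3 pooled mice per group was sequenced as 50-base single reads from strand non-specific TruSeq libraries. The authors used Eoulsan 1.1.6, removing reads of 11 bases or fewer and of mean quality 12 or lower, aligned with Bowtie 0.12.7 and dropped reads matching more than once. They deposited, per Ensembl transcript, the raw count of reads aligned over its exons, that count as a fraction of a library total (not used further), the transcript length and its bases without a read. Dropping such reads lowers counts of genes with near-identical copies, and reads falling on exons common to several transcripts enter the count of each.

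The methods name mm10, but the files reach position 197054472 on chromosome 1, past the last annotated position of GRCm38 (195323493), so coordinates come from GENCODE M21 through the transcript identifiers, which named 83.8% of the 82813 rows. Size factors were 1.1452 for C57BL6 WT, 0.9258 for C57BL6-BALB/c WT and 0.9532 for Cx30-/-. Ratios carry exact conditional binomial intervals (scipy 1.17.1), for counting error only. The test across genes was the quasi-likelihood test of edgeR 4.0.16 (R 4.3.3) after filterByExpr and TMM scaling, with Benjamini-Hochberg adjustment. It was tested on simulated counts, and had DESeq2 1.42.0 as an alternative. The study used DESeq 1.6.10.

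The 10 genes and the other lists were chosen with earlier results of these data known, so that no list is independent evidence. Named besides the 10 genes are proteoglycan genes beside a member, listed genes past 2-fold in both comparisons, the highest gene per kilobase of each pathway list, and direct partners of the members. A gene that this rule names is not reported here. Other genes, Aldh1a1, Hpgds and Slc6a12 among them, were named after their values were seen. Slc6a12, Rdh10 and Crabp2 stand in more than 1 list. Lhfpl3, Thbs2 and Pappa2 were not analysed here.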

Additional observations from a re-analysis of the deposited data

How the results depend on the processing

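None (0) of the 10 genes passed 2-fold in any comparison under TMM, total-count or upper-quartile scaling, with the rows of a gene summed or its longest row, with a pseudocount of 1, with no count minimum, with 50 normalized counts in both libraries, or at a ratio of 4. At a ratio of 1.5, which is a weaker threshold by construction, 3 genes passed against C57BL6-BALB/c WT, where 28.9% of all genes did, and 1 between the WT libraries, where 15.4% did. The log2 ratios of the 10 genes moved by at most 0.09 in these alternatives, and so their medians by no more. Of these ratios 1 changed sign, that of Pdgfra against C57BL6 WT, from -0.02 to 0.00 (just above 0) under upper-quartile scaling. With that scaling 9 of the 10 genes were higher than in C57BL6 WT. Over all genes, 2-fold calls against C57BL6 WT went from 210 higher and 186 lower to 1929 and 1883 with no minimum, and to 109 and 121 with the minimum in both libraries. Against C57BL6-BALB/c WT, 589 and 705 became 2268 and 2692 with no minimum. Of the 30 log2 ratios of the 10 genes, 4 moved beyond their counting interval under total-count scaling and 1 under upper-quartile scaling. With summed rows 2 did, and with the longest row 2. For genes of the other lists, 88 values moved beyond their counting interval and 3212 did not. None of the 10 genes passed the test across genes in any version, their lowest adjusted p being 0.5 to 0.951 over the alternatives, while over all genes edgeR's quasi-likelihood test called 9, and 35 with RLE factors, 14 with summed rows and 135 without a filter (DESeq2 7). No paired analysis was possible because each group has 1 library. Leaving out a WT library leaves no residual degree of freedom, and each comparison with a single WT library is that value. Depth limits Lum most, with 346 to 535 counts. Differences within 2-fold cannot be set against variation between mice.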
